A study of Homo sapiens with 6 samples.

Results

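The kinesins, the motor proteins that walk along or take apart microtubules, were compared between TC28a2 cells treated with mocetinostat and TC28a2 cells treated with DMSO. Members were taken by gene symbol alone: a row of the gene table belonged to the set if its symbol was KIF followed by a number and an optional letter A to C, or KIFC1, KIFC2 or KIFC3. This gave 42 genes of the 60623 in the table, of which 38 had enough reads to be tested. The contrast of interest was between 8 mitotic kinesins (KIF11, KIF14, KIF18A, KIF20A, KIF23, KIF2C, KIF4A and KIFC1) and 8 cargo kinesins (KIF1A, KIF21A, KIF21B, KIF3A, KIF3C, KIF5A, KIF5B and KIF5C). The other 26 kinesins were described beside them.

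TC28a2 is an immortalized human chondrocyte line, so all 6 samples come from 1 dividing cell line and not from cartilage tissue. One group received 2 μM mocetinostat, an inhibitor with preference for class I histone deacetylases, and the control group received the solvent DMSO, both for 24 hours, and total RNA was sequenced. Each group had 3 samples, which the study describes as independent experiments. The p-values measure the spread between these samples.

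A kinesin couples ATP hydrolysis in its motor domain to movement on a microtubule, and its other parts decide what it carries or crosslinks. Mitotic kinesins build the spindle, move and align chromosomes and complete cytokinesis, so dividing cells make most of them in G2 and mitosis. Cargo kinesins haul vesicles, organelles and RNA toward microtubule plus ends. Some of them, such as KIF5B, work in nearly every cell type, while KIF1A and KIF5A are known mainly from axonal transport in neurons.

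Total counts ranged from 4873426 to 11031132 in the DMSO samples and from 1619344 to 5089542 in the mocetinostat samples, so the mocetinostat values rest on fewer reads. Levels are given as CPM, counts scaled to a common library size with TMM correction. The words upregulated and downregulated are kept for genes with an adjusted p under 0.05 (edgeR quasi-likelihood test, Benjamini-Hochberg) whose log2 fold change was also over 1 or under -1. Of 13966 genes tested, 20.2% were upregulated and 8.18% were downregulated. SOX9, the transcription factor that defines chondrocytes, was at 102, 122 and 95.5 CPM with DMSO and 190, 187 and 163 CPM with mocetinostat, and it made up most of the summed level of 14 chondrocyte markers, which ranged from 122 to 146 CPM and from 269 to 312 CPM. CNMD, a cartilage matrix marker, had no count in any sample. Of the 14 markers 8, 7 and 10 had more than 3 counts in the DMSO samples, and 13, 10 and 11 in the mocetinostat samples. Few DMSO counts were found for COL9A1 (0, 3 and 1), COMP (3, 0 and 8) and SOX5 (1, 0 and 5). The same held for SOX6 (2, 2 and 3), COL11A1 (3, 1 and 4) and PRG4 (5, 3 and 1).

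Across the whole family, 10 of the 38 tested kinesins were upregulated and 7 were downregulated, against 20.2% and 8.18% of all genes tested. The upregulated kinesins were KIF1A, KIF5A, KIF5C, KIF21B, KIF12, KIF13B, KIF17, KIF19, KIF26A and KIFC2, and the downregulated ones were KIF14, KIF15, KIF18B, KIF20A, KIF22, KIF23 and KIF4A. With at least 10 counts in every sample, which leaves out genes that start near 0, 5 of 32 were upregulated, against 1620 of 10876 genes. A gene was tested if it reached 2.01 CPM, scaled by total counts, in at least 3 samples. KIF1A, KIF5A, KIF12, KIF17 and KIF19 reached this in 0 or 1 DMSO sample and in all 3 mocetinostat samples, so they were tested only through the group in which they were high and their direction was fixed by the filter. At the adjusted p alone, 15 were higher and 18 were lower, against 32.9% higher and 31.4% lower among all genes tested. The median log2 fold change of the 38 was -0.22, against -0.0021 over all genes tested. The medians of the mitotic and the cargo class had opposite signs. Kinesins as a whole took 0.353% ± 0.00697 of the counts with DMSO and 0.288% ± 0.00539 with mocetinostat (SD, n = 3).

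**Figure D1:**
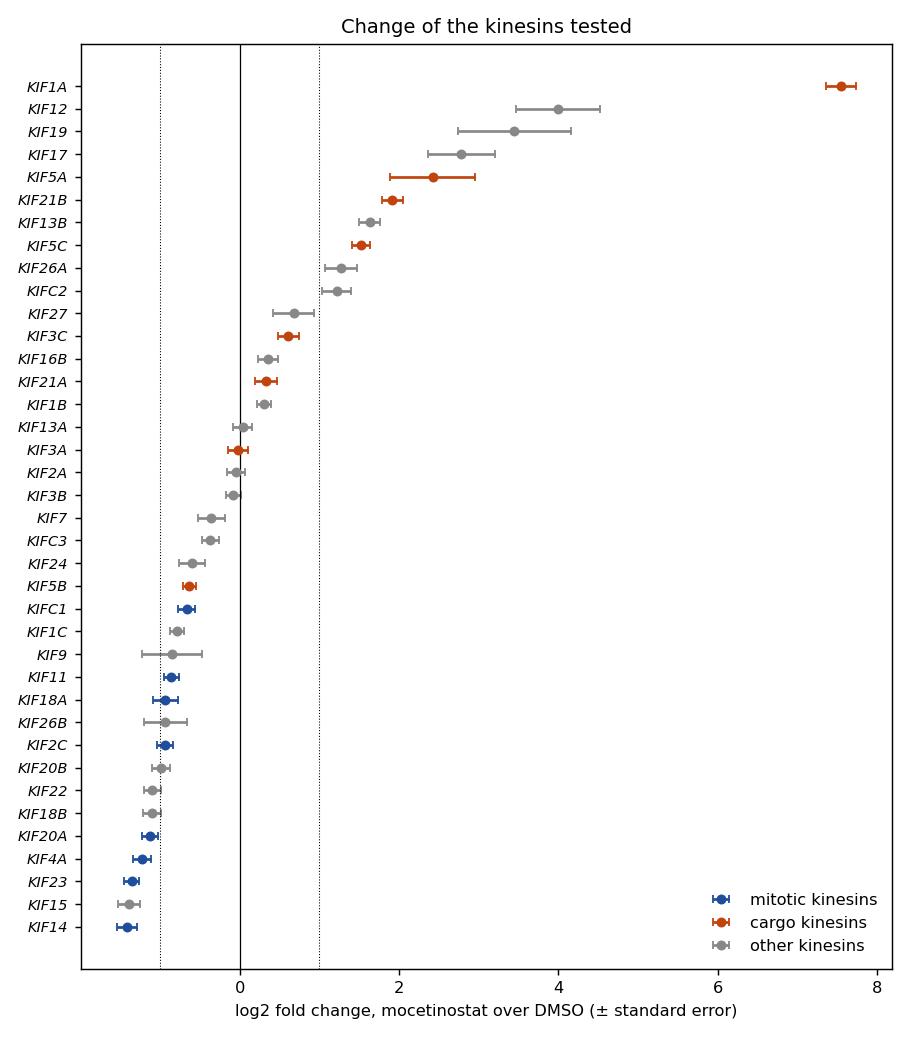
Log2 fold change (mocetinostat against DMSO, from the edgeR fit on 3 samples a group) of the 38 tested kinesins, drawn by class, with bars for 1 standard error. The 8 mitotic kinesins lie between -1.41 and -0.67, and the cargo kinesins run from KIF5B at -0.63 to KIF1A at 7.55.

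The mitotic kinesins were lower with mocetinostat. All 8 passed the adjusted p in that direction and none overlapped between groups, against 32.8% of all tested genes in which every mocetinostat sample lay below every DMSO sample. KIF14, KIF23, KIF4A and KIF20A passed the fold change limit as well and were downregulated, while KIF18A, KIF2C, KIF11 and KIFC1 were lower by less. The 8 log2 fold changes spanned -1.41 to -0.67 with a median of -1.03, a narrow range beside that of the cargo class. Scaled to GAPDH, all 8 stayed below 0 but none was downregulated, with a median of -0.50 against 0.53 over all genes. On that scale 284 of 13966 genes were downregulated. In bulk RNA, fewer cells in mitosis and less kinesin RNA in each cell cannot be told apart.

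Promoters of the mitotic kinesins shared sequence letters that the class rule did not use. Windows from 250 bases before to 50 bases after the start were taken from RefSeq (GRCh38.p14) for 34 of the 42 kinesins. No window was used for KIF21B, KIF5A, KIF13B, KIF19, KIF26B, KIF27, KIFC2 and KIFC3. Cell cycle genes are often repressed in resting cells through the cell cycle homology region (CHR), with the letters TTTGAA or TTCGAA, and a nearby CCAAT box often serves G2 and mitotic genes. Both motifs were sought on both strands, so that TTCAAA and ATTGG are also matches, and they share no overlapping letters in the windows printed here. CHR letters were present in 6 of the 8 mitotic windows (75.0%), in 1 of 6 cargo windows (16.7%) and in 16.6% of all 27305 promoters. CCAAT letters were present in 7 of 8 mitotic windows (87.5%), 1 of 6 cargo windows and 35.7% of all promoters. The stretch from 100 bases before to 20 bases after the start is shown for 5 mitotic kinesins, the 4 that were downregulated and KIF18A, with CHR and CCAAT matches in capitals.
KIF23, chr15:69414249-69414368, plus strand: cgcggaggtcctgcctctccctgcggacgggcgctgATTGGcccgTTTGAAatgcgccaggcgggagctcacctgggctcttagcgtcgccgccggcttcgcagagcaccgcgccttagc
KIF4A, chrX:70290004-70290123, plus strand: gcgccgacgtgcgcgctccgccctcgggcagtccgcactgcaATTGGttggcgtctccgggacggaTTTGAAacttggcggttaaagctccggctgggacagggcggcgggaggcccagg
KIF14, chr1:200620732-200620851, minus strand: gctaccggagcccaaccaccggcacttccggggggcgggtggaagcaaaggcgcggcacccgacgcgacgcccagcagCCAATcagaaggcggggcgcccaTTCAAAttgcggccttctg
KIF18A, chr11:28108137-28108256, minus strand: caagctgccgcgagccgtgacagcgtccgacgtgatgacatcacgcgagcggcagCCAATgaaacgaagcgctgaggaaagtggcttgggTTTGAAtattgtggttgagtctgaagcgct
KIF20A, chr5:138179012-138179131, plus strand: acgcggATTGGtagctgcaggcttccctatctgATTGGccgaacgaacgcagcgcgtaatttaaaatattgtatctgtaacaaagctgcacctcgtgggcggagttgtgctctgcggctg

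KIF23, KIF4A, KIF14 and KIF18A each carried a CCAAT box with CHR letters downstream of it, close to the start. KIF20A had 2 CCAAT boxes and no CHR letters, and KIF2C had neither motif in its window. The 6 CHR matches of the mitotic class all lay within 100 bases before the start or after it, a placement found in 7.43% of all promoters. By response, CHR letters were in 6 of the 7 downregulated kinesins and in 0 of the 5 upregulated kinesins that had a window. Of these 5, KIF1A, KIF12 and KIF17 had their direction fixed by the filter, so no contrast by response is drawn. GC box letters (GGGCGG, both strands) were common to both classes, at 7 of 8 mitotic and 4 of 6 cargo windows, against 44.6% of all promoters. A match is a run of letters and not a measured binding site. Some RefSeq starts lie within the gene as GENCODE draws it, among them KIF11 (19025 bases inside), KIF5C (72648 bases), KIF26A (2133 bases) and KIF1A.

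**Figure D2:**
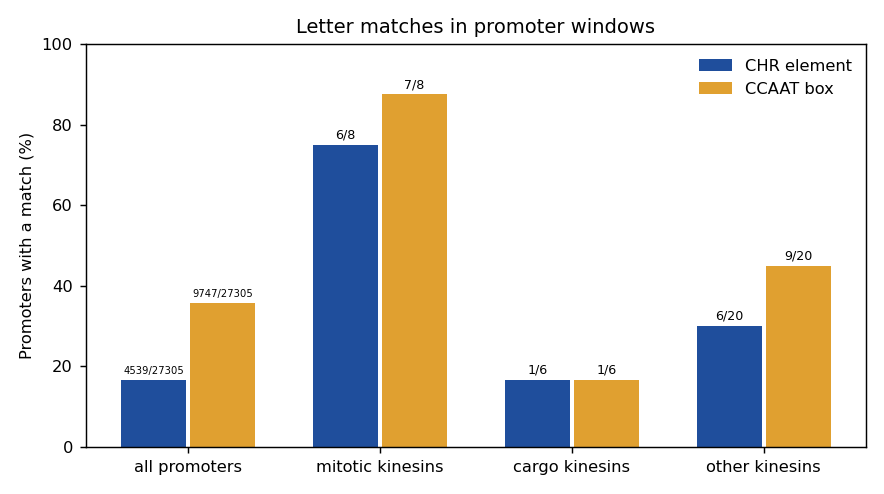
Share of promoter windows (percent of windows, 250 bases before to 50 bases after the RefSeq start) that hold CHR letters or CCAAT letters, for the mitotic, cargo and other kinesins and for all promoters. Bars start at 0 and the labels give windows with a match over windows searched. The mitotic bars stand at 75.0% and 87.5%, against 16.6% and 35.7% of all promoters.

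The kinesins of the spindle midzone and of cytokinesis had the lowest log2 fold changes of the class. KIF14 (chr1:200551497-200620751), which recruits citron kinase to the midbody, was at 128, 130 and 115 CPM with DMSO and at 55.1, 37.2 and 41.9 CPM with mocetinostat. Its log2 fold change was -1.41 (SE 0.12, adjusted p = 6.6e-17), the lowest of the 38 tested kinesins. KIF23 (chr15:69414246-69448427), the MKLP1 subunit of centralspindlin, was at 272, 262 and 266 CPM and then at 113, 93.0 and 102 CPM. Each group of KIF23 values was tight, and the change was -1.36 (SE 0.09, adjusted p = 1.32e-21). KIF4A (chrX:70290104-70420886), a chromosome arm motor that also limits the length of midzone microtubules, fell from 151, 131 and 140 CPM to 61.1, 56.4 and 61.8 CPM, by 1.23 on the log2 scale (SE 0.11, adjusted p = 3.48e-16). KIF20A (chr5:138178719-138187723), or MKLP2, moves the chromosomal passenger complex to the midzone. It was at 214, 190 and 214 CPM with DMSO against 93.2, 102 and 89.9 CPM with mocetinostat, a log2 fold change of -1.13 (SE 0.10, adjusted p = 6.86e-17). In all 4 genes the highest mocetinostat sample was far under the lowest DMSO sample.

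The motors of the spindle and the kinetochore were lower too, without reaching the fold change limit. KIF11 (chr10:92574105-92655395), the Eg5 motor that pushes spindle poles apart, was at 216, 191 and 203 CPM with DMSO and 115, 96.1 and 122 CPM with mocetinostat (log2 fold change -0.86, SE 0.10, adjusted p = 2.35e-12). KIF2C (chr1:44739818-44767767), or MCAK, does not walk but takes apart microtubule ends at kinetochores. Its values were 173, 179 and 180 CPM and then 96.2, 89.2 and 89.5 CPM, both groups with very small spreads (-0.94, SE 0.10, adjusted p = 1.67e-13). KIF18A (chr11:28020619-28108156), which dampens chromosome oscillations at the metaphase plate, was at 56.4, 46.0 and 41.7 CPM against 25.8, 31.6 and 19.9 CPM (-0.93, SE 0.16, adjusted p = 4.21e-07).

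KIFC1 (chr6:33391823-33409896), a minus-end motor that clusters spindle poles, moved least. It was at 120, 134 and 158 CPM with DMSO and at 81.7, 90.5 and 89.1 CPM with mocetinostat (-0.67, SE 0.11, adjusted p = 1.32e-07). The groups did not overlap. Exons of RPL12P1 on the opposite strand cover 13.99% of the KIFC1 exons, and reads of the 2 genes could be mixed if the counting ignored strand.

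Partners of these motors moved in the same direction. Of 18 genes for spindle and midzone partners, 17 were tested. In this list 13 were downregulated and 16 were lower at the adjusted p, against 8.18% and 31.4% of all genes tested. Their median log2 fold change was -1.16. Scaled to GAPDH 4 were downregulated, and 7 in the stricter test against a log2 fold change of 1. Of all 13966 genes 284 and 465 were downregulated in these settings. AURKA, the spindle pole kinase, changed by -2.13 from 331 ± 19.9 to 76.7 ± 10.96 CPM (SD, n = 3). PLK1, the mitotic kinase that docks on KIF20A, changed by -2.08 and CDCA8, a passenger complex subunit, by -1.89. CIT, ECT2, NUMA1 and PRC1 were not called, and NUSAP1 had too few reads to be tested. Another gene on the same strand covers 57.6% of the PRC1 exons and 81.4% of the NUSAP1 exons, and how reads in the overlap were counted is not given in the sources used here. CENPE, a kinetochore kinesin whose symbol lies outside the rule, was counted in this list and changed by -1.70 (SE 0.11).

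Cell cycle readout genes moved with the mitotic kinesins. All 10 were lower at the adjusted p and 6 were downregulated (median -1.19), against 31.4% and 8.18% of all genes tested. Scaled to GAPDH 3 were downregulated, against 284 of 13966 genes. The cyclins CCNA2 (-1.93), CCNB1 (-1.79) and CCNB2 (-1.63) were the lowest. CDK1 was at only -0.31 with overlapping groups, and it turned to 0.22 when scaled to GAPDH. The summed level of the 10 ranged from 3594 to 3767 CPM with DMSO and from 1614 to 1689 CPM with mocetinostat. A list of 14 genes held the DREAM complex and MMB-FOXM1, regulators that act through CHR letters, with CDKN1A, the p21 inhibitor upstream of DREAM. In it 4 genes were downregulated (2 when scaled to GAPDH) and only CDKN1A was upregulated (median -0.37), against 8.18% and 20.2% of all genes tested. LIN9 (-1.88), FOXM1 (-1.86, with 15.9% of its exons under ITFG2 on the opposite strand) and E2F4 (-1.21) were the lowest. CDKN1A was at 52.9, 63.1 and 58.2 CPM with DMSO and 400.5, 457 and 401 CPM with mocetinostat, a log2 fold change of 2.86 (SE 0.09, adjusted p = 4.06e-40). The part of cell division in the kinesin values was not tested.

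**Figure D3:**
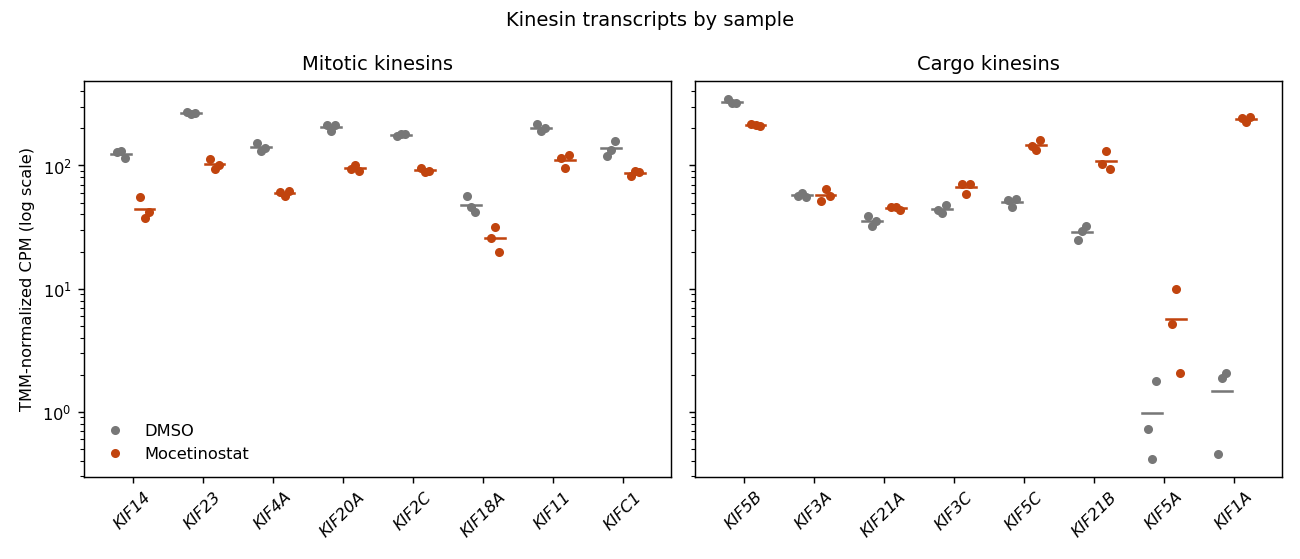
Level of each of the 16 mitotic and cargo kinesins in every sample, in CPM on a log axis, with DMSO and mocetinostat samples in different colours and 3 points a group. KIF1A shows the widest gap, from 0.452 to 2.06 CPM with DMSO up to 224 to 249 CPM with mocetinostat, and KIF3A shows no gap.

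The cargo kinesins split by member. KIF1A, KIF5A, KIF21B and KIF5C were upregulated, KIF3C and KIF21A were higher by less, KIF3A did not pass the test, and KIF5B was lower. The median log2 fold change of the 8 was 1.06, over a range from -0.63 to 7.55. With at least 10 counts in every sample 2 were upregulated, against 1620 of 10876 genes, and the median was 0.55. In 6 of the 8 every mocetinostat sample lay above every DMSO sample, as in 33.7% of all genes tested. KIF1A and KIF5A are among the 6 and were tested only through their mocetinostat counts. The filter fixed their direction, so the count is no test against that share.

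KIF1A (chr2:240713761-240824293), the motor of synaptic vesicle precursors and dense core vesicles in axons, had only 5, 9 and 14 counts in the DMSO samples and 1215, 361 and 602 counts in the mocetinostat samples. These are 0.452, 1.87 and 2.06 CPM against 241, 224 and 249 CPM. The groups were separated by about 2 orders of magnitude, and the deepest DMSO sample had the fewest KIF1A reads. The log2 fold change was 7.55 (SE 0.18, adjusted p = 8.52e-48), a fold of 187, from a gene that passed the filter through its mocetinostat counts. It was 6.87 without DMSO replicate 1 and 7.995 without DMSO replicate 3, the DMSO counts being so few. KIF1A stood 37th of the 42 kinesins by CPM per kilobase of exon with DMSO (0.0818 ± 0.0493) and 10th with mocetinostat (13.3 ± 0.734).

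KIF1A and KIF5B, the cargo kinesins at either end of the range, differed in their windows as well, and both stretches are printed as above.
KIF1A, chr2:240821384-240821503, minus strand: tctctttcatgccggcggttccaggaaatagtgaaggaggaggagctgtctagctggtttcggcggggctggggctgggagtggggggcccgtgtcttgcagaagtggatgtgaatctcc
KIF5B, chr10:32056406-32056525, minus strand: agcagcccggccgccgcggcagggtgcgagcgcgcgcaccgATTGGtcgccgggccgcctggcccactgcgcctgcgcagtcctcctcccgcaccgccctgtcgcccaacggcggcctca

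The RefSeq start of KIF1A lies 2890 bases inside the gene as GENCODE draws it, while that of KIF5B is at the 5′ end of its gene. The KIF1A window of 300 bases held no CHR, CCAAT or GC box letters, with 10 CpG and 51.7% G and C. The KIF5B window held a CCAAT box, CHR letters farther from the start than the printed stretch, 30 CpG and 69.7% G and C. Over all promoters the median G and C content was 58.3%.

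Kinesin-1, the founding family that carries mitochondria and many vesicles, holds KIF5A, KIF5B and KIF5C. KIF5B (chr10:32009015-32056425), its ubiquitous member, was at 347, 322 and 319 CPM with DMSO and at 216, 212 and 208 CPM with mocetinostat, lower by -0.63 on the log2 scale (SE 0.08, adjusted p = 2.75e-10), and by -0.10 with adjusted p = 0.335 on the scale of GAPDH. KIF5C (chr2:148875227-149026759), which is enriched in neurons, went the other way, from 52.6, 46.2 and 53.6 CPM to 144, 133 and 161 CPM (1.52, SE 0.11, adjusted p = 2.09e-20). Both genes were free of overlap between groups. KIF5A (chr12:57546026-57586633), the neuronal member, had DMSO counts of 8, 2 and 12 and mocetinostat counts of 26, 16 and 5, or 0.724, 0.416 and 1.77 CPM against 5.15, 9.92 and 2.07 CPM. The lowest mocetinostat value was just above the highest DMSO value. Its log2 fold change of 2.42 (SE 0.53, adjusted p = 5.97e-05) was 1.95 without mocetinostat replicate 2 and 3.05 without DMSO replicate 3. Like KIF1A, it passed the filter only through its mocetinostat counts.

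Kinesin-2, which drives intraflagellar transport in cilia and carries vesicles in neurites, pairs KIF3A with KIF3B or KIF3C. KIF3A (chr5:132692628-132737638) was at 56.8, 60.0 and 55.4 CPM with DMSO and at 51.3, 64.5 and 56.4 CPM with mocetinostat. The groups overlapped and the log2 fold change was -0.02 (SE 0.13, adjusted p = 0.877). KIF3C (chr2:25926598-25982749), the partner found mostly in neurons, was at 43.5, 40.8 and 47.6 CPM against 70.2, 58.9 and 70.5 CPM, higher by 0.61 (SE 0.13, adjusted p = 2.67e-05). KIF3B, the general partner, did not pass the test (-0.08, adjusted p = 0.472). KIF17, a homodimer of the same family that works in dendrites and cilia, had DMSO counts of 10, 5 and 16 and mocetinostat counts of 59, 16 and 17, and it was upregulated by 2.78 (SE 0.42, adjusted p = 2.1e-08), with the same limit from the filter.

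Kinesin-4 contributes the paralogs KIF21A and KIF21B, which restrain microtubule growth as well as move. KIF21B (chr1:200969390-201023714), found mainly in neurons and lymphocytes, was at 24.9, 29.2 and 32.4 CPM with DMSO and at 103, 130 and 93.7 CPM with mocetinostat (1.91, SE 0.13, adjusted p = 1.56e-21). KIF21A (chr12:39293228-39443390) was at 38.8, 32.3 and 35.2 CPM and then 45.6, 45.9 and 43.1 CPM, a small difference of 0.33 (SE 0.14, adjusted p = 0.0367). Neither gene overlapped between groups, and the difference was far larger for KIF21B.

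Because both genes of a ratio are read in the same sample, ratios of raw counts between paralogs do not depend on how libraries are scaled. Ratios were formed for 18 pairs, and 13 of them did not overlap between groups, which is not far from the share of single genes that do not (33.7% above and 32.8% below). With 3 samples against 3 the smallest two-sided p of an exact permutation test is 0.1 (0.138 after Benjamini-Hochberg adjustment over the 18), so no pair could pass a threshold of 0.05. Pairs with KIF1A or KIF5A also hold a gene whose direction the filter fixed. The ratios are therefore given as a description. KIF5B reads per KIF5C read went from 6.60, 6.95 and 5.95 with DMSO to 1.51, 1.59 and 1.29 with mocetinostat, 4.45-fold lower. KIF1A reads per KIF1B read, KIF1B being a widely expressed motor of the same vesicles, went from 0.00279, 0.0116 and 0.0121 to 1.23, 1.12 and 1.17. After treatment KIF1A thus had slightly more reads than KIF1B in every sample. KIF21A reads per KIF21B read dropped from 1.56, 1.11 and 1.09 to 0.442, 0.352 and 0.460.

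Values of other pairs are given in the same way, as a description without a test that could pass. KIF13A reads per KIF13B read, a pair of kinesin-3 endosome and membrane motors, went from 2.28, 2.66 and 2.53 to 0.831, 0.928 and 0.714. KIF26A reads per KIF26B read, from a family whose motor domain does not hydrolyse ATP, went from 1.19, 0.921 and 0.602 to 4.15, 3.40 and 4.73. KIF2A reads per KIF2C read, both microtubule depolymerases, went from 0.553, 0.509 and 0.511 to 0.920, 1.01 and 1.03, KIF2C being lower and KIF2A not passing the test. KIF18A to KIF18B, KIF20A to KIF20B, KIF3A to KIF3B, KIF5A to KIF5C and KIFC1 to KIFC3 overlapped between groups.

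**Figure D4:**
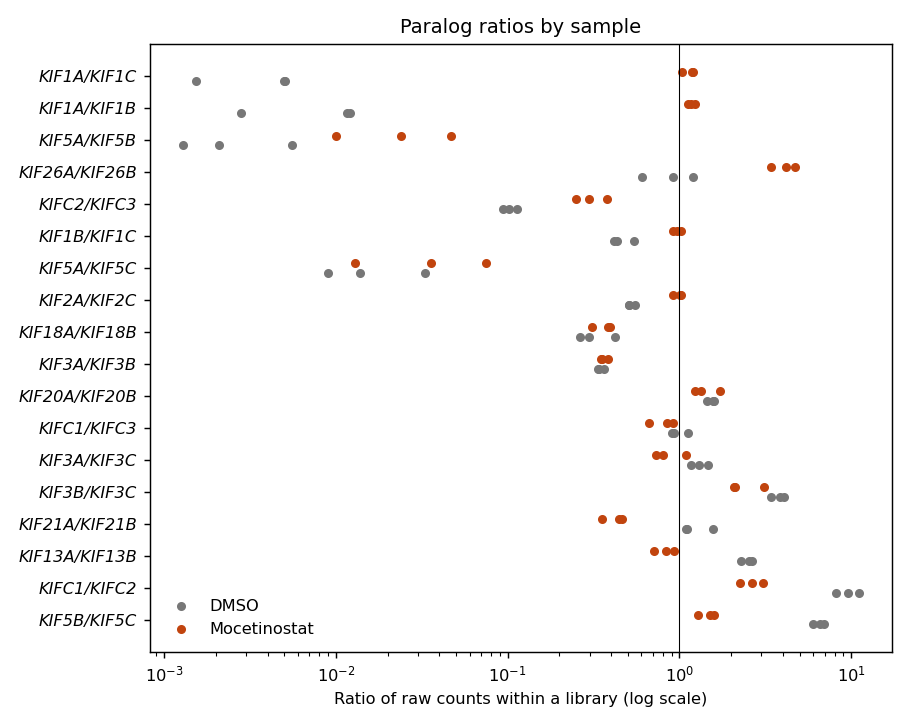
Ratio of raw counts between paralogous kinesins in every sample, on a log axis, with DMSO and mocetinostat samples in different colours and 3 points a group. The ratio of KIF1A to KIF1B lies between 0.00279 and 0.0121 with DMSO and between 1.12 and 1.23 with mocetinostat. The direction of KIF1A was fixed by the filter. The ratio of KIF3A to KIF3B overlaps between groups.

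Among the other 26 kinesins, 22 were tested and the median log2 fold change was -0.06. In this group 6 were upregulated and 3 were downregulated, against 20.2% and 8.18% of all genes tested. KIF12, KIF17 and KIF19, among the 6, were tested only through their mocetinostat counts. The 3 downregulated genes all serve mitosis. KIF15, which works beside KIF11 on spindle microtubules, was at 86.2, 76.4 and 77.1 CPM with DMSO and 29.1, 34.1 and 29.8 CPM with mocetinostat (-1.39, SE 0.14, adjusted p = 1.29e-14). KIF22, the chromokinesin Kid, was at 144, 148 and 153 CPM against 67.8, 81.2 and 60.9 CPM (-1.10, SE 0.11, adjusted p = 1.91e-14). KIF18B, which shortens astral microtubules, was at 134, 154 and 159 CPM against 65.2, 81.8 and 64.2 CPM (-1.10, SE 0.11, adjusted p = 3.03e-14). KIF20B, a kinesin-6 of late cytokinesis, was just short of the limit at -0.99 (SE 0.11, adjusted p = 2.14e-12) and passed it with DESeq2 at -1.03. Scaling to GAPDH ended the calls of all 3 downregulated genes.

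The upregulated members of this remainder were KIF12, KIF13B, KIF17, KIF19, KIF26A and KIFC2. KIF13B was at 30.03, 27.1 and 32.0 CPM with DMSO and at 90.2, 94.8 and 92.8 CPM with mocetinostat, the best measured of them (1.63, SE 0.13, adjusted p = 7.38e-19). KIF26A was at 13.9, 12.1 and 9.58 CPM against 27.2, 31.6 and 29.4 CPM (1.27, SE 0.20). KIFC2, a minus-end motor known from the nervous system, was at 14.7, 13.95 and 14.3 CPM against 36.5, 34.1 and 29.0 CPM (1.22, SE 0.18), and FOXH1 on the opposite strand covers 17.8% of its exons. None of the 3 overlapped between groups. The calls of KIF26A and KIFC2, like those of KIF20A, KIF22 and KIF18B, were lost in a stricter test against a log2 fold change of 1.

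KIF12 and KIF19 were near the limit of detection with DMSO. KIF12, an epithelial kinesin, had DMSO counts of 9, 0 and 3 and mocetinostat counts of 36, 11 and 28 (3.99, SE 0.53, adjusted p = 5.47e-10), and its log2 fold change was 4.88 without DMSO replicate 1. KIF19, a length regulator of motile cilia, had 1, 4 and 1 counts against 15, 5 and 9 counts (3.45, SE 0.71, adjusted p = 1.88e-05). Its value moved between 2.77 without DMSO replicate 1 and 4.55 without DMSO replicate 2. Both genes were tested only through their mocetinostat counts, and the size of either fold is poorly fixed.

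Of the remaining 13 tested kinesins, 6 were lower and 3 were higher at the adjusted p without reaching the limit, and 4 did not pass it. The lower ones were KIF20B, KIF26B, KIF9, KIF1C, KIF24 and KIFC3, the last of which turned to 0.16 when scaled to GAPDH. KIF1C, a widely expressed vesicle motor, was the most abundant of them at 360 ± 59.0 CPM with DMSO and 209 ± 6.49 CPM with mocetinostat (SD, n = 3), a log2 fold change of -0.79 (SE 0.09). KIF1B (0.30), KIF16B (0.35) and KIF27 (0.68) were higher, the last of them only at 0.25 without mocetinostat replicate 1, with an adjusted p of 0.54. KIF7, a scaffold of Hedgehog signalling in cilia, KIF3B, KIF2A and KIF13A did not pass the test, at -0.35, -0.08, -0.05 and 0.04. KIF9 passed narrowly (-0.85, adjusted p = 0.0442), its groups overlapped, and it did not pass with DESeq2 (adjusted p = 0.21). Exons on the opposite strand cover 18.7% of those of KIF2A (DIMT1), 14.8% of KIF9 (KIF9-AS1) and 10.8% of KIF7 (TICRR), so these 3 carry the same limit on strand as KIFC1 and KIFC2.

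Too few reads for the test were found in 4 of the 42 kinesins. KIF25 had DMSO counts of 9, 1 and 0, against 5, 0 and 0 with mocetinostat. KIF2B had 1, 0 and 3 counts against 5, 1 and 2, and KIF6, a cilium kinesin, had 4, 1 and 0 against 5, 5 and 0. KIF4B, an intronless and near-identical copy of KIF4A, had 5, 4 and 1 counts against 0, 0 and 0, and how reads shared by the 2 copies were counted is not given in the sources used here.

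Levels were compared between kinesins per kilobase of merged exons. With DMSO the highest were KIF5B at 56.1 ± 2.59, KIF20A at 53.4 ± 3.55, KIF2C at 48.6 ± 1.05 and KIFC1 at 45.4 ± 6.28 CPM per kilobase (SD, n = 3), neighbours that mostly lie within their spreads. With mocetinostat KIF5B was still first at 36.2 ± 0.721, followed by KIFC1 at 28.7 ± 1.56, KIF3B at 26.0 ± 3.39 and KIF2C at 25.1 ± 1.07. KIF3B lies within the spread of KIFC1 and of KIF2C, while the ranges of KIFC1 and KIF2C by 1 SD do not meet. The order at the top depends on the length used. With the canonical transcript length KIF23 ranked 1st with DMSO and KIF5B 6th, and this second scale was chosen after seeing the data.

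Mitotic kinesins made up 49.3%, 47.9% and 48.4% of the length-scaled kinesin reads in the DMSO samples and 36.1%, 33.7% and 35.7% in the mocetinostat samples. Cargo kinesins made up 14.01%, 13.4% and 12.97% and then 21.8%, 21.4% and 21.9%. Neither share overlapped between groups. The shares are a description, and no test was run on them. The summed level behind these shares was 284 ± 8.54 CPM per kilobase with DMSO and 139.9 ± 2.88 with mocetinostat for the mitotic class, and 78.9 ± 2.48 and 86.5 ± 0.832 for the cargo class, out of 586 ± 14.2 and 398 ± 8.67 for all kinesins. The cargo sum was slightly higher while the total was lower. Without KIF1A the cargo sum was 78.8 ± 2.52 with DMSO and 73.2 ± 1.55 with mocetinostat, and the cargo share 13.46% ± 0.526 and 19.01% ± 0.0833, a setting chosen after seeing the data. The remaining kinesins took 38.0% ± 1.10 with DMSO and 43.1% ± 1.54 with mocetinostat (SD, n = 3). Their summed level went the other way, from 223 ± 9.11 CPM per kilobase with DMSO to 172 ± 9.74 with mocetinostat. Within kinesin-1 the KIF5C share depended on the length: it went from 2.66% ± 0.204 to 10.7% ± 1.14 with merged exons, which are 33151 bases long for KIF5C, and from 11.5% ± 0.787 to 36.1% ± 2.91 with the canonical transcript of 6954 bases.

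**Figure D5:**
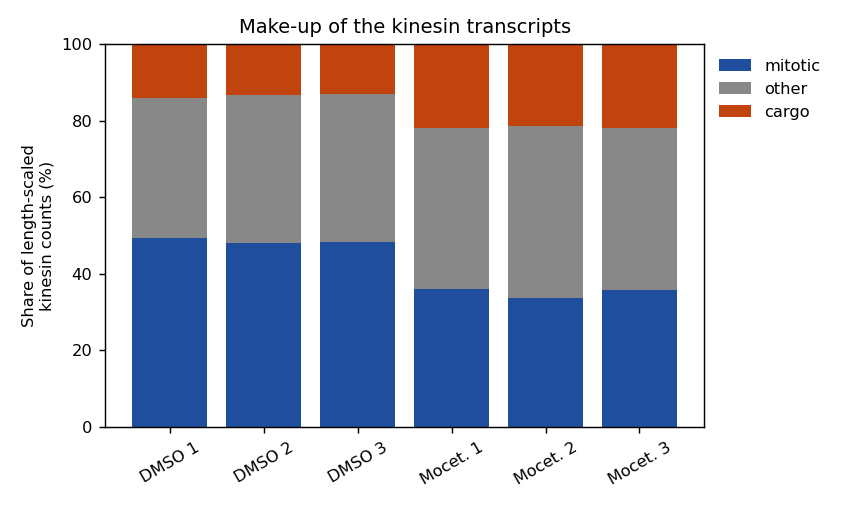
Share of length-scaled kinesin reads (percent) taken by mitotic, cargo and other kinesins in each sample, with 3 samples a group. The mitotic share lies between 47.9% and 49.3% with DMSO and between 33.7% and 36.1% with mocetinostat, and the cargo share is higher in each mocetinostat sample.

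Of 11 kinesins under 10 CPM with DMSO, 7 were tested and 5 were upregulated, and of 15 at 100 CPM or more, 0 were upregulated and 6 were downregulated. The 5 are those tested only through their mocetinostat counts, so the filter fixed their direction. Of all genes tested, whatever their level, 20.2% were upregulated and 8.18% were downregulated. All genes were not split by level, so these counts are not read as a trait of kinesins. Over the 38 tested kinesins the log2 DMSO level and the log2 fold change had a Pearson correlation of -0.79 and a Spearman correlation of -0.70. This is a description across genes, since genes are not independent replicates, the DMSO counts enter both measures and the filter shapes the low end.

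Partners of the cargo motors varied by list. Of 6 kinesin light chains and adaptors, KLC3 alone was upregulated, which is near the 20.2% of all genes tested. KLC3 went from 3.8, 6.04 and 10.02 CPM to 48.8, 40.9 and 46.0 CPM (2.84, SE 0.21, adjusted p = 1.2e-19, with 14.6% of its exons under ERCC2 on the opposite strand). The median of the list was -0.0013. Of 23 cargo adaptors, 22 were tested and 8 were upregulated (median 0.41), against 20.2% of all genes tested. The largest changes were those of CLSTN2 (3.83), of a family that links vesicles to kinesin-1, HAP1 (3.74), the huntingtin-associated adaptor, and SYBU (3.54), which links KIF5B to syntaxin vesicles. SYBU reached the filter's level in 0 DMSO samples and HAP1 in 2, so the direction of SYBU was fixed by the filter. The opposite motor, cytoplasmic dynein with dynactin, had 24 tested genes with 1 upregulated and 1 downregulated (median -0.30), against 20.2% and 8.18% of all genes tested. At the adjusted p alone 7 were higher and 12 were lower, against 32.9% and 31.4%. DYNC1I1, its neuronal intermediate chain, had DMSO counts of 1, 0 and 0 and mocetinostat counts of 12, 4 and 8, at least 6.11-fold higher against a floor of 3 counts per DMSO sample. It too was tested only through its mocetinostat counts, and its call was lost without mocetinostat replicate 1 and after thinning to the smallest library. DCTN3, a dynactin subunit, was downregulated at -1.26 (SE 0.18). Scaled to GAPDH the list had 6 upregulated and 0 downregulated genes, and the stricter test left 0 downregulated. On the GAPDH scale 4425 of all 13966 genes were upregulated and 284 were downregulated, and the stricter test left 465 downregulated.

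Neuronal genes moved with KIF1A. Of 15 genes for neuronal microtubules and vesicles, 13 were tested (median 3.91). All 13 were higher at the adjusted p and 11 were upregulated, where all genes tested had 32.9% and 20.2%. Of these, GAP43, MAP2, MAP7, STMN4, SYP, SYT1 and TUBB3 reached the filter's level in 0 or 1 DMSO sample and were tested only through their mocetinostat counts, which fixed their direction. With these genes in them, the counts are no test against the shares of all genes. With at least 10 counts in every sample 4 genes of the list were upregulated, against 1620 of 10876 genes. The summed level of the list ranged from 785 to 815 CPM with DMSO and from 1681 to 1733 CPM with mocetinostat. STMN2 and STMN4, both neuronal stathmins, had no count in any DMSO sample. MAP2, the dendritic microtubule protein, was at 0.724, 1.25 and 0.442 CPM with DMSO and at 71.2, 72.5 and 72.1 CPM with mocetinostat (6.53, SE 0.25, adjusted p = 4.83e-36). STMN4 had 54, 22 and 22 counts with mocetinostat, at least 25.0-fold higher, and SYT1, the calcium sensor of synaptic vesicles, at least 11.8-fold. Among 10 genes of the REST complex, which silences neuronal genes together with histone deacetylases, only RCOR2 was upregulated, against 20.2% of all genes tested. RCOR2 changed by 2.14 (SE 0.39, from 2.24 ± 0.741 to 9.52 ± 1.64 CPM), and the median of the list was -0.06.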

How the data were processed

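The authors deposited 1 table for all 6 samples that holds whole raw read counts for each gene, not normalized. Per the study's methods and the submitters' processing notes, single reads of 100 bases were aligned to GRCh38 with STAR 2.6.1d and counted with featureCounts 1.6.4 (DESeq2 1.20.0 is also listed). Strand setting and the treatment of reads that map to several genes are not given in the sources used here.

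From the counts, edgeR 4.0.16 (R 4.3.3) computed TMM factors, kept 13966 genes with filterByExpr (minimum count 10) and compared the treatments by the quasi-likelihood test, with treatment as the only term. The analysis was tested on simulated counts with known changes, as many up as down, in genes that passed the filter. This simulation did not cover unequal shares of upregulated and downregulated genes, as found here. The biological coefficient of variation was 9.30%. Positions and exon lengths came from GENCODE 44, which matched 99.5% of gene identifiers and all 42 kinesins, and promoter windows from RefSeq. Python 3.11.15, pandas 2.3.3, scipy 1.17.1 and matplotlib 3.10.9 made summaries and plots.

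All kinesins are accounted for. Per-sample values are given for mitotic, cargo and called kinesins, and from each other list at most the 3 called genes with the largest change in each direction. Some further genes were named after their values were seen. Members and lists were chosen with earlier results of these data known. Alternatives were DESeq2 1.42.0, other scalings, filters and a stricter test (glmTreat), thinning to the smallest library, the replicate number as a block, and leaving out each sample. Replicate numbers did not pair the samples: deviations of same-numbered samples correlated at 0.037, 0.024 and -0.042 over 10262 genes. Low totals limit genes under about 10 counts, and limits from counts cover counting error only.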

Additional observations from a re-analysis of the deposited data

How the results depend on the processing

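The 8 mitotic kinesins had log2 fold changes below 0 and the cargo median was above 0 under every alternative run, and no call among the 17 called kinesins was lost on leaving out a sample. Scaling each library to GAPDH, whose share of counts was 0.301% ± 0.0124 with DMSO and 0.210% ± 0.00817 with mocetinostat, moved the median of all genes to 0.53. On that scale no kinesin was downregulated (0 of all kinesins, 0 of the mitotic class), though all 10 upregulated kinesins kept their call, and the medians were 0.32 for all kinesins, -0.50 for the mitotic and 1.599 for the cargo class. Also on that scale 2 light chains and adaptors were upregulated, and 6 dynein genes were up and 0 down. In the other lists 4 spindle partners, 3 cell cycle genes and 2 DREAM genes were down. Of all 13966 genes 4425 were upregulated and 284 were downregulated on that scale.

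With no filter 14 kinesins and 7 mitotic kinesins were downregulated, and 2 dynein genes were down. The medians were -0.32, -1.28 and 0.81 for all, mitotic and cargo kinesins. Of all 40504 genes then tested 2120 were downregulated, with a median of 0.25. The cargo median too was below that of the main fit, so the higher counts are not read as a result about mitotic kinesins. The filter of at least 10 counts in every sample drops genes that start near 0. It left 5 kinesins, 2 cargo kinesins, 4 neuronal genes and 0 dynein genes upregulated, with medians of -0.41, -0.96 and 0.55. Of all 10876 genes then tested 1620 were upregulated. After thinning to the smallest library the medians were -0.38, -0.98 and 0.72 and 0 dynein genes were upregulated, against 2136 of 11748 genes. glmTreat against a log2 fold change of 1 left 4 kinesins, 0 dynein genes, 7 spindle partners and 2 DREAM genes downregulated. It dropped the calls of KIF20A, KIF22, KIF18B, KIF26A and KIFC2. By that test 465 of all 13966 genes were downregulated. With DESeq2 the median of all kinesins was -0.10. On leaving out 1 sample at a time it ranged from -0.30 to -0.16 and that of the mitotic class from -1.13 to -1.02. Without mocetinostat replicate 1 the dynein list had 0 upregulated and 2 downregulated genes (ranges 0 to 1 and 1 to 2). Of 14281 genes tested without that sample, 2842 were upregulated and 1267 were downregulated.

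With the replicate number as a block, 10 kinesins were upregulated and 8 downregulated (KIF20B joining at -1.01). The mitotic median was -1.04 and the cargo median 1.06. Of all 13966 genes 2798 were upregulated and 1133 were downregulated in this fit. The replicate numbers do not pair the samples, so this fit is given here alone.

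Unscaled counts gave mitotic, cargo and other shares of 36.5%, 15.4% and 48.1% with DMSO and 21.3%, 30.4% and 48.3% with mocetinostat. The canonical transcript length, added after seeing the data, gave 46.0%, 11.4% and 42.6% and then 31.9%, 22.5% and 45.6%. Without KIF1A, also added later, the cargo share was 13.46% with DMSO and 19.01% with mocetinostat.

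Of 562 alternative values for single kinesins, 511 stayed on the same side of the limit, 15 fell short of it, 21 newly passed it and 15 turned direction. The turned values belong to KIF2A (0.49 with GAPDH, 0.031 with at least 10 counts in every sample, 0.012 thinned), KIF3B (0.45 with GAPDH, 0.016 thinned), KIF3A (0.51 with GAPDH, 0.053 with at least 10 counts, 0.090 thinned, -0.12 to 0.055 on leaving out a sample), KIF13A (-0.21 with no filter, and -0.073 to 0.11 on leaving out a sample), KIFC3 (0.16 with GAPDH) and KIF7 (0.18 with GAPDH). The GAPDH values turned together with a rise of the median of all genes from -0.0021 to 0.53 on that scale. The cause of the other shifts was not tested.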
